A study of Mus musculus with 8 samples.

Results

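The DaxxA and DaxxB arrays, 2 of each, were compared directly with each other. They were taken by their titles and are 4 of the 8 arrays in the series. All 8 arrays held total RNA from mouse embryonic fibroblasts (MEFs), connective tissue cells grown from embryos, in which the Daxx gene had been knocked out on an FVB/N background. The 4 arrays compared here came from such cells complemented with Daxx, and the other 4 from knockout cells complemented with vector. All cells were grown in serum-containing DMEM and harvested a day after seeding. The vector arrays entered no contrast here and are given only as levels. What A and B mean, whether either is a clone, and whether the arrays of a group are separate cultures is not in the labels. A p-value here covers the spread between arrays, which may be technical, and no more. With 2 arrays against 2, an exact permutation test cannot go below p = 0.333, so single values rest on the fit across all genes.

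Daxx is a histone chaperone that binds the replacement histone H3.3 and, with its partner Atrx, deposits it at repeats, telomeres and other silent chromatin. It also binds SUMO-modified proteins and gathers in PML nuclear bodies, where it is known mainly as a repressor of transcription. Mice without Daxx die as embryos, and embryonic fibroblasts are a common cell in which to study its loss and return.

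The Daxx probe set, which checks the labels, read 7.35 and 7.36 (log2 signal) in the DaxxA arrays, and 7.46 and 7.23 in the DaxxB arrays. The groups overlapped, and DaxxA minus DaxxB was 0.01 with a standard error of 0.08 (limma adjusted p = 0.949), 95% interval -0.16 to 0.19. In the 4 vector arrays it read between 6.85 and 7.34, so that 1 DaxxB value lay within the vector range and the other 3 complemented values lay just above it. Which exons the probes cover, and whether they lie in the deleted part, was not known here, so the probe set is a weak check. Of the other 23 measured genes on a list of Daxx partners and H3.3 chaperones, limma called 0 (3 had an unadjusted p below 0.05). The lowest p among them belonged to Ubn1, a subunit of the HIRA complex that deposits H3.3 in active genes, at 8.64 and 8.53 against 8.33 and 8.26 (difference 0.29 ± 0.06 SE, limma adjusted p = 0.0552). Atrx itself differed by 0.13 ± 0.06 (SE, adjusted p = 0.286).

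The 4 arrays were close to each other. Across 19938 genes the DaxxA arrays correlated at r = 0.9988 and the DaxxB arrays at 0.9987, and arrays of different groups at 0.9972 to 0.9982. Between these arrays and 3 of the vector arrays, r was 0.9946 to 0.9964. Vector array 2 stood apart, with an interquartile range over all probe sets of 2.79 where the other 7 arrays had 3.31 to 3.39. Of 17 measured fibroblast markers, 15 lay above the 95th percentile of olfactory receptor genes (6.05), a level used here as a guide to background because fibroblasts are not known to use these genes. The same held for 2 of 11 blood cell markers, 4 of 10 endothelial, 6 of 12 epithelial, 8 of 13 pericyte and muscle, 7 of 11 neural, 4 of 12 cartilage and bone and 4 of 10 pluripotency markers. Ptprc, the defining gene of blood cells, read 5.37 to 5.46 in the 4 arrays, Pecam1 of endothelium 5.36 to 5.44 and Epcam of epithelium 5.82 to 5.89, all under that level. Other markers on the same lists lay above it, among them Cd3e of blood (mean 6.46), Tie1 of endothelium (6.32) and Cldn3 of epithelium (6.63). In bulk RNA, fewer cells of a type and less RNA per cell cannot be told apart.

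Differences between DaxxA and DaxxB were small. A gene was called when its limma p-value, adjusted over all 19938 genes, was below 0.05. The calls numbered 362 (1.82%), of which 120 were higher in DaxxA (0.602%) and 242 lower (1.21%). None of the 362 reached 2-fold: the highest was 1.93-fold, the lowest 1.79-fold down, and the median sizes were 1.27-fold for genes higher and 1.26-fold for genes lower in DaxxA. Over all genes 1 passed 2-fold, Rny1, a small Y RNA singled out after its values were seen: it read 5.66 and 7.001 in DaxxA and 5.14 and 5.27 in DaxxB (1.13 ± 0.31 SE, limma adjusted p = 0.0836) and did not pass. The values of DaxxA and DaxxB did not overlap with DaxxA higher for 17.9% of all genes, and with DaxxA lower for 35.9%. The median difference over all genes was -0.04.

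**Figure D1:**
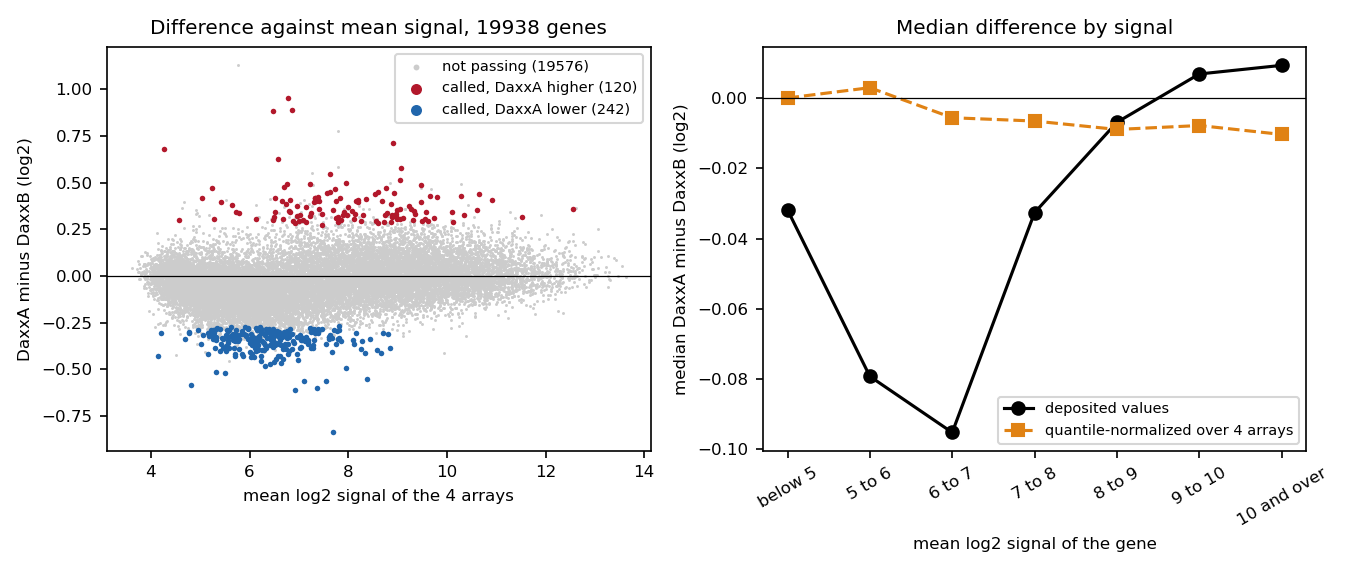
Left, DaxxA minus DaxxB (log2) of each of 19938 genes against its mean log2 signal over the 4 arrays, with the 120 genes called higher in DaxxA in red, the 242 called lower in blue and the others in grey. Right, the median difference in 7 ranges of mean signal, for the deposited values and after quantile normalization over the 4 arrays; the deposited curve dips to -0.10 between 6 and 7, and the normalized curve stays near 0.

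The difference moved with the signal. Its median was -0.08 for genes with a mean of 5 to 6, -0.10 for 6 to 7 and 0.01 for 10 and above, and 179 of the 242 lower calls had a mean under 7, against 31 of the 120 higher calls. Setting the 4 arrays to a common distribution again (quantile normalization) left 23 calls (0.115%), 18 higher and 5 lower, all among the 362. Under that setting DaxxA lay above DaxxB without overlap for 24.0% of all genes and below for 25.0%. The part of this offset in the calls was not tested.

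The number of calls also changed with the arrays used. Leaving out 1 array leaves a lone array in its group, which is then assumed to vary like the 2 arrays of the other group. Without DaxxA array 2 there were 0 calls (2803 genes at an unadjusted p below 0.05), without DaxxA array 1 there were 14, without DaxxB array 1 there were 168, and without DaxxB array 2 there were 886. A fit of the 3 groups over all 8 arrays, which takes in vector array 2, called 0 genes by limma (846 at an unadjusted p below 0.05), and the same fit without that array called 428, of which 283 were among the 362. Arrays centred on their medians gave 395 calls with the balance turned, 278 higher and 117 lower. The main genes below are therefore given with their values in the 4 arrays, and those called both in the deposited values and after quantile normalization are named as called under both.

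The 2 highest called differences belonged to zinc finger genes. Many such genes encode DNA-binding proteins and lie in clusters of recent duplicates, and their KRAB domain recruits the corepressor Trim28 to silence transposons. Of 350 measured genes named Zfp, a class set up after the values were seen, 13 were higher in DaxxA (3.71%, beside 0.602% of all genes) and 3 lower (0.857%, beside 1.21%; Zfp839, Zfp352 and Zfp36l3), and 6 of the 13 were called under both settings: Zfp975, Zfp931, Zfp518a, Zfp943, Zfp442 and Zfp971. The median over all 350 was 0.02, beside -0.04 for all genes, and 190 of the 350 differences were above 0. Probes for such genes can also bind RNA of near-identical neighbours, so the identity of a single member is uncertain.

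The 13 genes lay in part side by side. In RefSeq's gene order 3 pairs were immediate neighbours with 0 protein-coding genes between them: Zfp931 and Zfp971 on chromosome 2, Zfp442 and Zfp345 on the same chromosome, and Zfp942 and Zfp943 on chromosome 17, where Zfp229 was the next called one, with 2 genes between. A stretch of letters shared by 6 of the called promoters is shown next, as a feature these genes share beyond their values. Each promoter is the 250 bases before the first listed start, from RefSeq on GRCm38.p6, written in the direction of the gene, with CCAAT (or ATTGG, its other strand) and GGTGCTNATGTC in capitals.
Zfp975: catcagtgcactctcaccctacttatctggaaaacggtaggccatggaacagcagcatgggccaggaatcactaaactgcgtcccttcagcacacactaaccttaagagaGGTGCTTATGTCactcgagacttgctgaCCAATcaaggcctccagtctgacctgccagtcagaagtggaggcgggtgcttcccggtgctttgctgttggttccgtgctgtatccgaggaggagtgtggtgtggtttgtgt
Zfp931: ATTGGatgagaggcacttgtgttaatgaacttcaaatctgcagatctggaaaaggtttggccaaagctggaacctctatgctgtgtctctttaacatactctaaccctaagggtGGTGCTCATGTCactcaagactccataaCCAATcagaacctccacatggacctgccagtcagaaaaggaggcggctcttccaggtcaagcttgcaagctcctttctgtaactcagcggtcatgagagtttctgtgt
Zfp971: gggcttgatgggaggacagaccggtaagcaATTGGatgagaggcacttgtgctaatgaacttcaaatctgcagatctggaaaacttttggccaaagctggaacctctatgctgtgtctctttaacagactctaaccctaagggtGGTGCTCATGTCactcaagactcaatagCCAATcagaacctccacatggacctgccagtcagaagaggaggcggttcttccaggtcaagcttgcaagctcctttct
Zfp442: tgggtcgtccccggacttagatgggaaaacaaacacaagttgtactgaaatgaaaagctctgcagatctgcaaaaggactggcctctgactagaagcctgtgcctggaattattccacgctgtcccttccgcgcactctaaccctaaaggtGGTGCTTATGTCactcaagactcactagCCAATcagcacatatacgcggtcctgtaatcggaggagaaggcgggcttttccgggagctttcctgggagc
Zfp345: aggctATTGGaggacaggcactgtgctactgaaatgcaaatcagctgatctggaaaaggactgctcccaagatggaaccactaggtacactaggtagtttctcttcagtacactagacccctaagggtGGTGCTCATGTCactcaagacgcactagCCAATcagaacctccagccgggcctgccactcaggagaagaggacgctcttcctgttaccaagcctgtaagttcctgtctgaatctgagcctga
Zfp935: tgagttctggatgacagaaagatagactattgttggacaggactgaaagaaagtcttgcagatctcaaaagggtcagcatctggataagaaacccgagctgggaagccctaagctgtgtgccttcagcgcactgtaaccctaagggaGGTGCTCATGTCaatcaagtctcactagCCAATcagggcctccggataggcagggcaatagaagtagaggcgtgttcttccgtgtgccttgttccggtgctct
Zfp975 was read at chr7:42692719-42692968 on the minus strand, Zfp931 at chr2:178078426-178078675 on the minus strand, and Zfp971 at chr2:178023034-178023283 on the plus strand. Zfp442 was read at chr2:150451502-150451751 on the minus strand, Zfp345 at chr2:150485064-150485313 on the minus strand and Zfp935 at chr13:62466813-62467062 on the minus strand.

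The stretch GGTGCTNATGTC was picked as the run of 12 bases, 1 of them free, held by the most of the 13 called promoters (1 other run tied with it and overlaps it), so its frequency among them is fixed by that choice and is a description only. The tie went to the run rarest over all promoters, so the share there was not free of the choice either. Searched on both strands, it was in 6 of the 13, in no other of 286 promoters of genes named Zfp, and in 0.174% of 27025 RefSeq promoters. Zinc finger genes under other symbols were not counted among the 286. It was in the promoters of 15 measured genes. Of these the 6 Zfp genes were higher in DaxxA, which the choice of the stretch had fixed. The collagen gene Col5a3 was lower (-0.34). The other 8, from Gm14403 (0.21) and 6720489N17Rik (0.19) to Lgi2 (-0.25) and Vmn1r193 (-0.27), did not pass. The shorter CCAAT was in 76.9% of the 13 promoters, in 44.4% of Zfp promoters and in 34.5% of all, again on either strand, and does not overlap the stretch. Duplicated genes share much more of their letters than these, and a match is not evidence of a bound site.

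Zfp942 and Zfp943 are read away from each other from a common stretch. The 94 bases that their windows share are in capitals, each written in the direction of its own gene; Zfp943 was read at chr17:21962309-21962558 on the plus strand, and Zfp942 at chr17:21962465-21962714 on the minus strand.
Zfp943: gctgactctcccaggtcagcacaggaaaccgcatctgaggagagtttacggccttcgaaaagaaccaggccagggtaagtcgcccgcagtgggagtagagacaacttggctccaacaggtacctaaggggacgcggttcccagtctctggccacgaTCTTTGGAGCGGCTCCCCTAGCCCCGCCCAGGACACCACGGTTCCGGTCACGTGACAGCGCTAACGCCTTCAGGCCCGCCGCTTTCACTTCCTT
Zfp942: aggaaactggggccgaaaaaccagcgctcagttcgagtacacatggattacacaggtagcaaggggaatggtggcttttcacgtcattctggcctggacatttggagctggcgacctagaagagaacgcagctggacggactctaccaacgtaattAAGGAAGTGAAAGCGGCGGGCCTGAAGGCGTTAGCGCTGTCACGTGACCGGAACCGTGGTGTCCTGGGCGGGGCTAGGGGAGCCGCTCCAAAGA
Both genes were called higher in DaxxA, and both windows lack CCAAT.

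The zinc finger genes read as follows. Zfp975 was 7.23 and 7.27 in DaxxA and 6.12 and 6.48 in DaxxB (difference 0.95 ± 0.10 SE, limma adjusted p = 0.0162). Zfp931 was 7.30 and 7.31 against 6.22 and 6.61 (0.89 ± 0.11, adjusted p = 0.024). In both genes the DaxxB arrays were low and further apart than the DaxxA arrays, while the vector arrays, at 6.81 to 7.31 for Zfp975 and 6.95 to 7.85 for Zfp931, lay above both DaxxB arrays. Zfp518a, which lies outside these clusters, was 8.17 and 8.23 against 7.74 and 7.67 (0.50 ± 0.06, adjusted p = 0.024), with vector at 8.33 to 8.72. Zfp943 was 6.97 and 7.06 against 6.47 and 6.57 (0.49 ± 0.06, limma adjusted p = 0.0287), and here vector, at 6.49 to 6.86, lay below both DaxxA arrays. Only vector array 2, at 6.49, overlapped the DaxxB arrays. The difference was 0.49 for Zfp442, 0.45 for Zfp942, 0.45 for Zfp935, 0.43 for Zfp971 and 0.42 for Zfp345. The other 4 called genes, Zfp229, Zfp81, Zfp119a and Zfp322a, differed by 0.33 to 0.40.

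**Figure D2:**
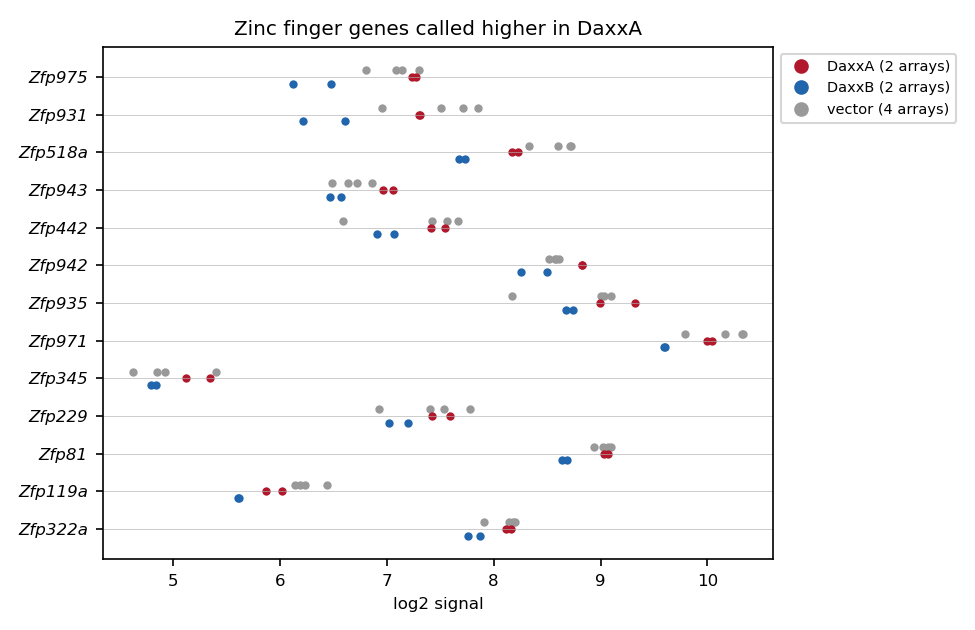
Log2 signal of the 13 zinc finger genes called higher in DaxxA, 1 point per array: DaxxA red, DaxxB blue, vector grey. In every gene both DaxxA arrays lie above both DaxxB arrays, and the gap is widest for Zfp975 and Zfp931.

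Among the other 15 highest genes, 3 had tight arrays and were called under both settings. Fbxo28, an F-box protein that selects substrates for ubiquitination, read 9.34 and 9.30 in DaxxA and 8.82 and 8.78 in DaxxB (0.52 ± 0.06 SE, limma adjusted p = 0.0217). Arfip1, a protein that binds the small GTPases Arf and Rac at the Golgi, read 9.71 and 9.72 against 9.19 and 9.27 (0.49 ± 0.06, adjusted p = 0.024). Eid3, a component of the SMC5/6 complex and a relative of the differentiation inhibitor Eid1, read 7.84 and 7.89 against 7.43 and 7.40 (0.45 ± 0.06, adjusted p = 0.0287). The vector arrays read 9.25 to 9.34 for Fbxo28 and 9.71 to 9.81 for Arfip1, close to DaxxA and above DaxxB. For Eid3 only vector array 2, the array that stood apart, read below DaxxB, at 6.69. The other vector arrays read 7.55 to 7.89, above DaxxB and up to the level of DaxxA.

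Others of the 15 were called in the deposited values only. Tfam, which packages and transcribes mitochondrial DNA, was 7.90 and 8.01 against 7.38 and 7.59 (0.47 ± 0.08 SE, limma adjusted p = 0.0331). Arhgap5, a GTPase-activating protein, differed by 0.47, Ublcp1, a phosphatase of the proteasome, by 0.47, and the noncoding RNA Dleu2 by 0.68 at signals under 5. Anp32-ps, listed as a pseudogene, differed by 0.58, and its probes may read its parent gene. Outside the 15, further genes called under both settings were Adamtsl3, a secreted matrix glycoprotein (7.54 and 7.52 against 7.14 and 7.09, 0.42 ± 0.06), Megf10, a phagocytic receptor (0.40), Smim10l1 (0.43), Chmp1b of the ESCRT-III membrane scission machinery (0.35) and the sialyltransferase St6galnac1 (0.39).

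**Figure D3:**
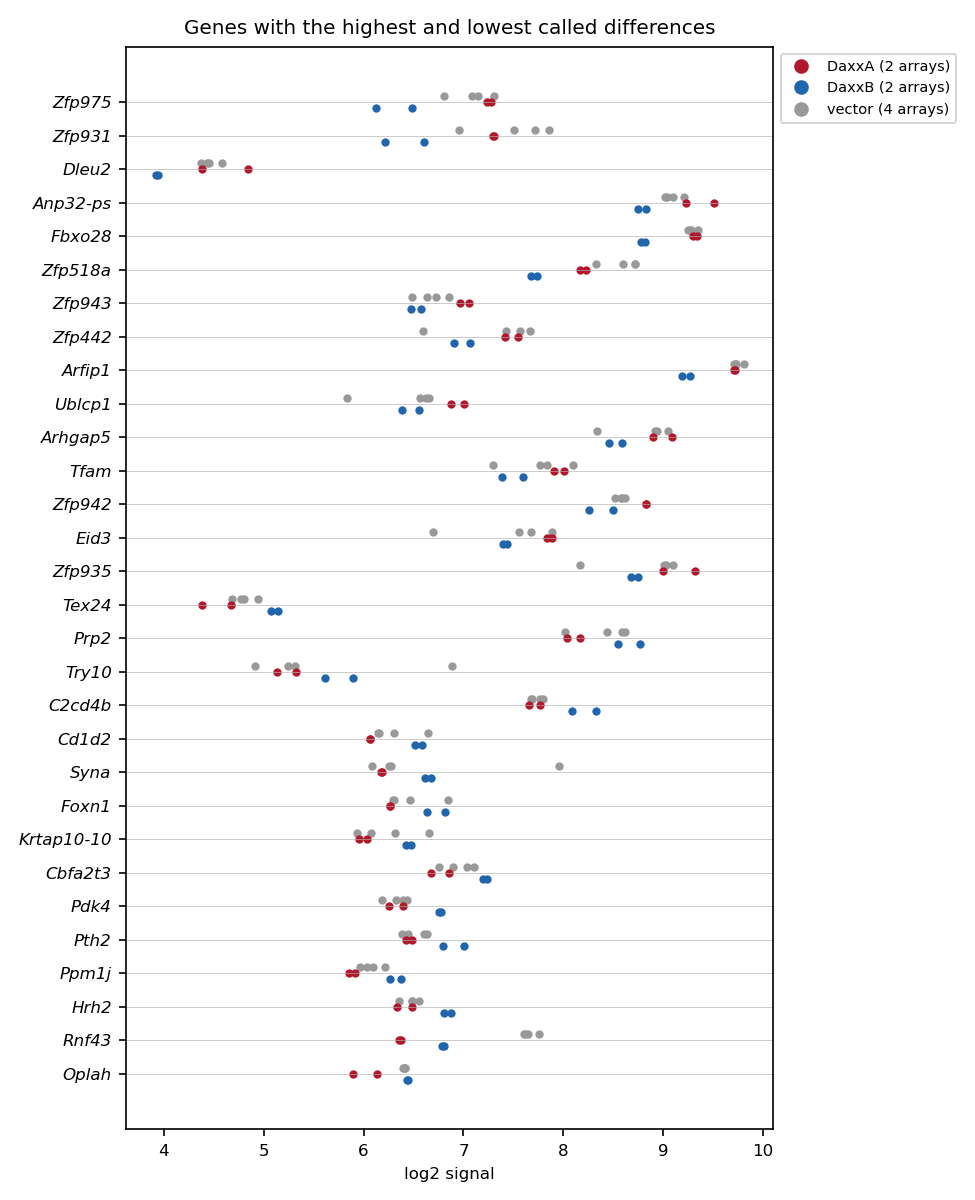
Log2 signal of the 30 genes at the ends of the called range, 15 per side (predicted genes, chemosensory receptors and small RNAs left out), 1 point per array: DaxxA red, DaxxB blue, vector grey. The upper 15 have DaxxA to the right of DaxxB and the lower 15 to the left, by 1.93-fold at most.

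Among the 15 lowest genes were several known from tissues other than fibroblasts: Foxn1, a transcription factor of thymic epithelium, Pth2, a neuropeptide, Hrh2, a histamine receptor, Syna, an envelope-derived gene of the placenta, and Krtap10-10, a hair keratin-associated gene, with differences of -0.43 to -0.47. The mean signals of these 5 genes lay between 6 and 7, the range with the lowest median difference, and after quantile normalization they differed by -0.35 to -0.38 and did not pass (limma adjusted p = 0.0572 to 0.0835). Prp2 was the only one of the 15 called under both settings. Prp2, a salivary proline-rich protein gene of a repeated family, read 8.17 and 8.03 in DaxxA and 8.76 and 8.55 in DaxxB (-0.55 ± 0.08 SE, limma adjusted p = 0.0293). Pdk4, the kinase that switches off pyruvate dehydrogenase in fasting, read 6.39 and 6.25 against 6.78 and 6.75 (-0.44 ± 0.07, adjusted p = 0.0293). C2cd4b was 7.76 and 7.66 against 8.33 and 8.08 (-0.49 ± 0.08, adjusted p = 0.0331), and Cbfa2t3, a corepressor of the ETO family, 6.86 and 6.67 against 7.24 and 7.19 (-0.45 ± 0.07, adjusted p = 0.0327). Of 1027 olfactory receptor genes measured, 15 were lower (1.46%, near the 1.21% of all genes) and 0 higher, and the median of -0.04 (-0.000375 after quantile normalization) was that of all genes. The lowest call of all was one of them, Olfr767, at 7.33 and 7.23 against 8.23 and 8.004 (-0.84 ± 0.08, adjusted p = 0.0162), which was called under both settings.

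Collagen genes lay lower in DaxxA almost throughout. Collagens are the triple-helical chains of the extracellular matrix, and fibroblasts secrete many of them. Of 37 measured chains 6 were lower (16.2%, beside 1.21% of all genes), 0 were higher, and 34 had a difference below 0, with a median of -0.17 (-0.11 after quantile normalization) beside -0.04 for all genes. The chains whose DaxxA and DaxxB values did not overlap were 28 with DaxxA lower (75.7%, beside 35.9% of all genes) and 0 with DaxxA higher, and 23 (62.2%, beside 25.0%) and 0 after quantile normalization. None of the 6 stayed called under that setting, and their size there was -0.25 to -0.31.

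The called chains were not the main fibrillar ones. Col6a3, a chain of the beaded filament collagen around cells, read 7.62 and 7.67 in DaxxA and 7.92 and 8.03 in DaxxB (-0.33 ± 0.06 SE, limma adjusted p = 0.038), with vector at 7.66 to 7.71. Col27a1, a fibrillar chain of cartilage, read 7.21 and 7.05 against 7.46 and 7.49 (-0.34 ± 0.07, adjusted p = 0.0428). Col5a3, a minor chain of the type V fibril, read 6.91 and 6.86 against 7.27 and 7.19 (-0.34 ± 0.06, adjusted p = 0.0365). Col9a2 and Col9a3, which coat cartilage fibrils, and Col16a1, another fibril-associated chain, differed by -0.31, -0.33 and -0.29. The chains of bulk type I and III fibrils differed less and did not pass: Col1a2 by -0.21, Col3a1 by -0.11 and Col1a1 by -0.07. The chains above 0 were Col5a2 (0.01), Col8a1 (0.04) and Col12a1 (0.05), and the sign of Col5a2 and Col8a1 changed when 1 array was left out.

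**Figure D4:**
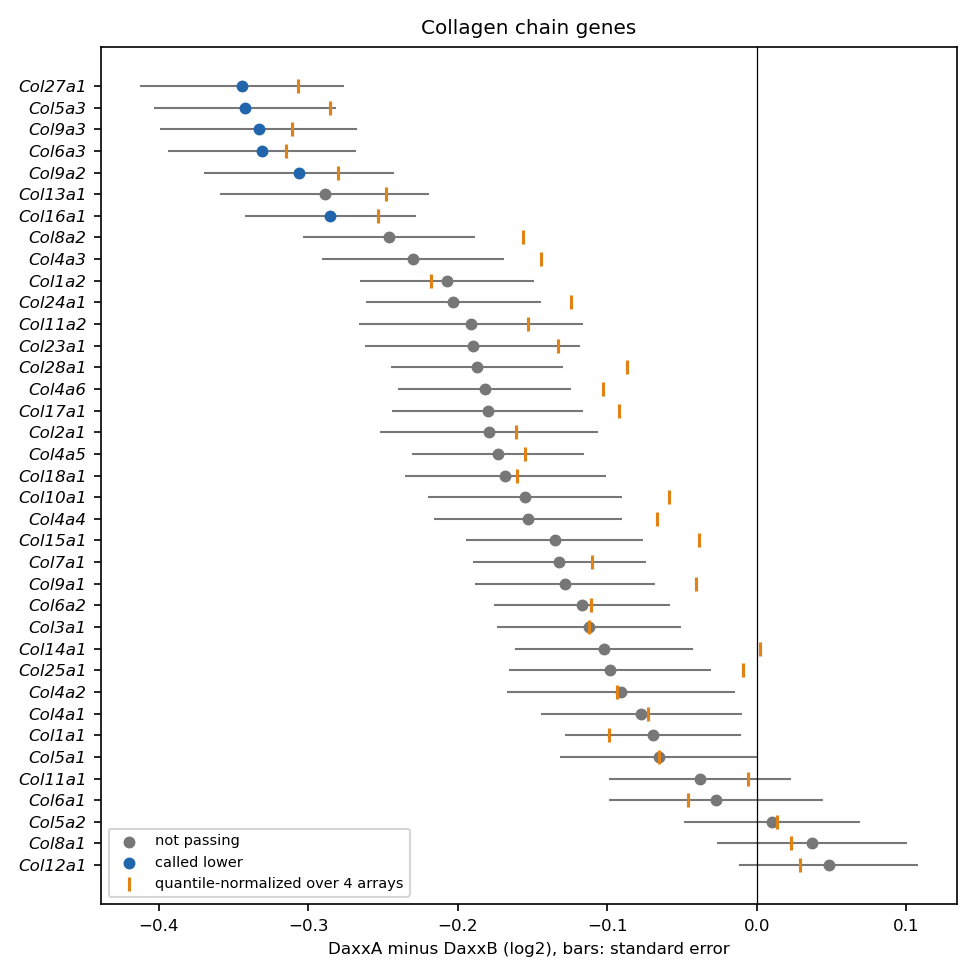
DaxxA minus DaxxB (log2) of the 37 measured collagen chains, with the standard error as a bar, 6 called chains in blue and the value after quantile normalization over the 4 arrays as an orange tick. The differences run from -0.34 for Col27a1 to 0.05 for Col12a1, and 34 of the 37 lie below 0.

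Other matrix genes gave few calls. Of 50 matrix glycoproteins and crosslinking enzymes 6.0% were called, beside 1.82% of all genes. The microfibril protein Mfap5 was lower (-0.29 ± 0.06 SE), at a mean of 5.27, under the olfactory receptor level of 6.05. The Wnt-inducible matricellular protein Ccn5 was also lower (-0.29 ± 0.06), and 1 gene was higher, its relative Ccn3. Ccn3 read 8.99 and 9.02 in DaxxA and 8.67 and 8.77 in DaxxB (0.29 ± 0.06, limma adjusted p = 0.0488), with vector at 9.32 to 9.71. Ccn5 was 7.67 and 7.68 against 7.99 and 7.93. The medians were -0.07 for these glycoproteins, -0.11 for 35 proteoglycans and hyaluronan genes, and -0.06 for 36 matrix proteases and inhibitors, with 0 calls in the latter lists (11 and 7 genes at an unadjusted p below 0.05). Of 12 cartilage and bone markers 2 were lower (16.7%, beside 1.21% of all genes), and neither was called after quantile normalization. Alpl, the alkaline phosphatase of mineralising cells, read 7.65 and 7.51 against 7.98 and 7.91 (-0.36 ± 0.07, limma adjusted p = 0.0367). The cartilage protein Matn1 (-0.31) had a mean of 5.7, under the olfactory receptor level of 6.05.

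The lists of growth factor pathways (Wnt, FGF and PDGF, insulin-like growth factors, BMP and TGF-beta) held 3 called genes, Igf2, Rnf43 and Pdgfra, all lower in DaxxA. That was 1 of 37 Wnt genes (2.7%), 1 of 24 FGF and PDGF genes (4.17%) and 1 of 14 insulin-like growth factor genes (7.14%). Of 41 BMP and TGF-beta genes 0 were called. Over all genes 1.82% were called, and 242 of those 362 calls were lower. None of the 3 was called after quantile normalization. Igf2, the imprinted fetal insulin-like growth factor, read 6.46 and 6.46 in DaxxA and 6.79 and 6.77 in DaxxB (-0.31 ± 0.06 SE, limma adjusted p = 0.0367). The vector arrays read 7.52 to 7.74, above both groups, so DaxxA lay further from vector than DaxxB did. Mir483, a microRNA gene inside Igf2 on chromosome 7, was also lower, at 7.31 and 7.23 against 7.82 and 7.85 (-0.56 ± 0.06, adjusted p = 0.0162), and it was called under both settings. Its vector arrays read 7.10 to 7.58, so DaxxA lay inside the vector range and DaxxB above it, unlike its host gene.

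Rnf43, a ubiquitin ligase that removes Wnt receptors from the cell surface and is itself a Wnt target, was 6.35 and 6.37 in DaxxA and 6.78 and 6.80 in DaxxB (-0.43 ± 0.06 SE, limma adjusted p = 0.0292). Vector stood at 7.61 to 7.76, again above both. It was the only call on a list of 37 Wnt pathway genes, whose median was -0.11 (-0.04 after quantile normalization); Wnt2, Wnt10b, Dkk1, Wnt7b and Dkk3 differed by -0.25 to -0.21 and did not pass. Pdgfra, the receptor for platelet-derived growth factor that marks embryonic mesenchyme, was 8.13 and 8.09 against 8.52 and 8.39 (-0.35 ± 0.06, adjusted p = 0.0367), with vector at 8.76 to 9.27. In these 3 protein-coding genes DaxxB lay between DaxxA and vector. Called genes of such signalling outside the lists, picked after their values were seen, went both ways. Lgr4, a receptor for R-spondins that acts in the same Wnt receptor circuit as Rnf43, was higher, at 7.87 and 8.06 against 7.58 and 7.54 (0.40 ± 0.07, limma adjusted p = 0.0365), with vector at 7.40 to 8.08. The growth factor gene Fgf4 (-0.32) and the morphogen gene Shh (-0.29) were lower.

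Other called genes had DaxxA between DaxxB and vector. Cd34, a sialomucin of progenitors and mesenchymal cells, was 9.81 and 9.71 in DaxxA and 9.47 and 9.45 in DaxxB (0.29 ± 0.06 SE, limma adjusted p = 0.0479), far below the vector arrays at 11.30 to 11.42. Tbx20, a T-box factor of heart mesenchyme, was 8.29 and 8.42 against 8.06 and 7.85 (0.40 ± 0.08, adjusted p = 0.0428), with vector at 9.13 to 9.19. Xist, the noncoding RNA that silences the inactive X chromosome, was 11.10 and 11.12 against 10.72 and 10.69 (0.41 ± 0.06, adjusted p = 0.0293), with vector at 11.72 to 11.84. The groups did not overlap in any of these genes, and DaxxB stood furthest from vector in each. The 5 measured Y-linked genes read 4.09 to 4.98 in the 4 arrays, and none passed the test.

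Over all calls the vector median was nearer to DaxxA in 87 of the 120 higher genes (72.5%) and in 171 of the 242 lower genes (70.7%), beside 55.9% of all 19938 genes. No test was made of these shares, since the genes were chosen by a contrast that uses the same DaxxA and DaxxB values.

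Of 302 measured microRNA genes 26 were called, 7 higher in DaxxA (2.32%, beside 0.602% of all genes) and 19 lower (6.29%, beside 1.21%). After quantile normalization 1 higher and 1 lower were called. The array reads the gene or its precursor, so a call is not a level of the mature microRNA. MicroRNAs pair with targets through the seed, bases 2 to 8, and the called genes whose mature products share a seed are printed with it in capitals, together with the products of Mir483, which had the lowest difference among them. The sequences are from RefSeq on GRCm38.p6, which held 22 of the 26 genes.
mmu-let-7c-5p: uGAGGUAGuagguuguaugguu
mmu-let-7d-5p: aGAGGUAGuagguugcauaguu
mmu-miR-181c-5p: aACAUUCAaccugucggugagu
mmu-miR-181d-5p: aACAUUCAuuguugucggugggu
mmu-miR-483-5p: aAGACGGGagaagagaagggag
mmu-miR-483-3p: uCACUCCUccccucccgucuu
The let-7 products lie at chr16:77599672-77599693 (plus strand) and chr13:48536078-48536099 (minus strand), the miR-181 products at chr8:84178924-84178945 (minus strand) and chr8:84178759-84178781 (minus strand), and those of Mir483 at chr7:142654968-142654989 (minus strand) and chr7:142654932-142654952 (minus strand).

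Both shared seeds joined called genes that differed in the same direction. Seeds were compared among called genes only, so members of these families that were not called were not looked at. The let-7 genes Mirlet7c-1 and Mirlet7d, of a family that restrains growth and the fetal programme, lie on different chromosomes and were higher in DaxxA. Mirlet7c-1 read 5.39 and 5.58 against 4.98 and 5.04 (0.47 ± 0.07 SE, limma adjusted p = 0.0327), with vector at 5.77 to 6.67, and was called under both settings. Mirlet7d read 7.90 and 8.01 against 7.61 and 7.65 (0.32 ± 0.06, adjusted p = 0.0421). Mir181c and Mir181d, which lie together on chromosome 8, were lower: Mir181c read 7.35 and 7.37 against 7.69 and 7.76 (-0.37 ± 0.06, adjusted p = 0.0331), and Mir181d differed by -0.41. The highest differences among microRNA genes were 0.89 for Mir186, whose DaxxB arrays were 5.72 and 6.34, and 0.63 for Mir125b-1. Among 52 small nucleolar RNA genes, which guide the modification of ribosomal RNA, Snord37 (0.38) and Snord52 (0.40) were higher under both settings (3.85%, beside 0.602% of all genes) and 0 were lower. Their class mean was 7.80 and 8.02 in the DaxxA arrays and 7.74 and 7.78 in the DaxxB arrays, so DaxxA array 2 alone stood clearly higher. The part of that array's level in these calls was not tested.

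Most histone genes of S phase differed in the same direction. Of 22 measured replication-dependent histone genes on the list, whose messages are made with DNA replication and lack a poly(A) tail, limma called 0 (5 had an unadjusted p below 0.05), 20 differences were above 0 and the median was 0.08. The values did not overlap with DaxxA higher for 13 genes (59.1%, beside 17.9% of all genes) and with DaxxA lower for 0, the same counts as after quantile normalization (beside 24.0% of all genes higher). H3c15, a replication-dependent H3 gene that the list lacks, named after its values were seen, was called higher, at 8.72 and 8.79 against 8.17 and 8.45 (0.44 ± 0.09 SE, limma adjusted p = 0.0402), and was not called after quantile normalization (0.44, adjusted p = 0.0904). The largest on the list were H2ac4, at 7.17 and 7.24 against 6.83 and 6.998 (0.29 ± 0.07 SE, limma adjusted p = 0.0643), and H4c6, at 10.67 and 10.64 against 10.33 and 10.44 (0.27 ± 0.06, adjusted p = 0.0572). The mean over the list was 8.74 and 8.70 in the DaxxA arrays and 8.58 and 8.67 in the DaxxB arrays. DaxxB array 1 thus stood lowest, and DaxxB array 2 lay close to DaxxA. The part of DaxxB array 1 in the shared direction was not tested. Many histone genes are near-identical, so their probes are not independent readings. The 29 cell cycle genes had a median of 0.02 and the 25 DNA replication genes 0.03, with 0 calls in each (3 and 3 genes at an unadjusted p below 0.05).

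The remaining calls on the gene lists were single genes. Idi1, an isomerase of cholesterol synthesis, was higher, at 10.79 and 10.97 against 10.47 and 10.42 (0.44 ± 0.07 SE, limma adjusted p = 0.0331), the only call of 19 cholesterol genes. Irgm1, an interferon-induced GTPase of autophagy, was higher (8.66 and 8.75 against 8.42 and 8.40, 0.29 ± 0.06, adjusted p = 0.0475), the only call of 34 interferon-stimulated genes, whose median was -0.05. The acute phase gene Saa1 (-0.31) and the complement gene C4b (-0.29) were lower at signals under 6. In all, the 44 lists held 1059 measured genes, of which 21 were called, 6 higher and 15 lower. These shares are near those over all 19938 genes (1.82% called, 0.602% higher and 1.21% lower). No called member was found in 31 lists. These included NF-kB targets, chemokines and cytokines, Hox genes, p53 targets, glycolysis, the unfolded protein response and ribosomal proteins. None of the 21 stayed called after quantile normalization. They kept their direction there, at 0.27 to 0.41 for the 6 higher genes and -0.20 to -0.35 for the 15 lower ones (limma adjusted p = 0.0515 to 0.135). Leaving out 1 array left 0 list members called without either DaxxA array, 7 without DaxxB array 1 and 41 without DaxxB array 2.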

How the data were processed

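Total RNA of 8 mouse fibroblast samples was amplified, biotin-labelled and read on Affymetrix gene arrays, and the values of 2 DaxxA and 2 DaxxB arrays were compared, with samples grouped by title. The values are log2 signals deposited by the authors and made with Affymetrix Expression Console and RMA, per the submitters' processing notes. RMA removes background, sets the arrays to a common distribution and summarises each probe set, so differences of weak signals are compressed and a shift common to most genes is largely removed. The deposited values still differed in distribution, with medians over genes from 6.95 in DaxxA array 2 to 7.02 in DaxxB array 1. Software versions, array library and build: not given in the sources used here. The number of arrays limits the precision.

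The table held 35556 probe sets, of which 21789 had 1 gene symbol in the platform annotation, 1621 had several and 12146 had none listed. Per gene the probe set with the highest mean over 8 arrays was kept (1851 set aside), which left 19938 genes, 19856 of them matched to RefSeq on GRCm38.p6. DaxxA minus DaxxB was fitted with limma 3.58.1 (R 4.3.3, lmFit and eBayes) on the 4 arrays, with Benjamini-Hochberg adjustment over all genes and calls at an adjusted p below 0.05. The fit was tested on simulated data. Named genes were Daxx, the 15 highest and 15 lowest called differences without overlap (skipping predicted genes, olfactory and vomeronasal receptors, small RNAs and antigen receptor segments), and up to 6 members of each of 44 gene lists by p. Other genes, and the classes of zinc finger, olfactory receptor, microRNA and small nucleolar RNA genes, were chosen after their values were seen. The lists held 1197 entries, of which 1085 matched a measured gene. The members, lists and tests were chosen with earlier results of these data known. Alternatives were other samples in the fit, filters on weak signals, other spread estimates, other normalizations, the mean of a gene's probe sets, a replicate block and leaving out each array.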

Additional observations from a re-analysis of the deposited data

Results flagged for a closer look

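Among 22 sets of 4 vector arrays examined for a single array far from the others, 5 had one, and in each it was vector array 2; chance gives about 1 in 20. Its interquartile range over all probe sets was 2.79, with the other vector arrays at 3.33 to 3.39, and its median over olfactory receptor genes was 5.21, with the others at 4.65 to 4.68. It was also the lowest vector array for Xist (11.7, others 11.8), Ccn3 (9.32, others 9.71) and Adamtsl3 (7.36, others 8.09 to 8.17). This array entered no contrast here. For these 3 genes only the vector range rests on it, and in each it is the vector array nearest to DaxxA.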

How the results depend on the processing

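Of Daxx and 96 other genes recomputed under the 15 alternatives (51 and 79 of the 96 under the filters), 3, none of which passed, turned their direction, each when 1 array was left out: Daxx ran from -0.106 to 0.129, Col5a2 from -0.0161 to 0.0367 and Col8a1 from -0.024 to 0.0974. Of 258 list members under the naming rule, most of them not among the 96, 6 turned after quantile normalization, and 0 of these were called. The count of 362 calls (120 higher, 242 lower, 21 on the gene lists) did depend on the setting, and the cause was not tested. Leaving out 1 array gave 0 to 886 calls, 0 to 233 higher, 0 to 653 lower and 0 to 41 on the lists. The fit of 3 groups over 8 arrays gave 0 in each count, by limma (846 genes at an unadjusted p below 0.05). Quantile normalization over the 4 arrays gave 23 calls, 18 higher, 5 lower and 0 on the lists. Cyclic loess, an alternative chosen after seeing the data, gave 33 calls, 23 higher, 10 lower and 1 on the lists. An intensity trend in the spread estimate gave 715 calls, 328 higher, 387 lower and 44 on the lists. Centring on array medians gave 278 higher and 117 lower, and keeping genes with a mean of at least 7 gave 111 lower of 283. A replicate block gave 724 calls, 238 higher, 486 lower and 32 on the lists. The arrays are numbered 1 and 2 in both groups, but there are only 2 pairs, the labels tie no number to a day or culture, and the differences between arrays 1 and 2 of each group correlated at r = 0.0963 across 19938 genes, so the samples share only a number. The 7-array fit, the robust estimate, the filter at a mean of 6 and the probe set mean kept each count within 1.5 times. No detection calls were given, so how far weak signals lie above background is unknown.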
